A study of Mus musculus with 98 samples.

Results

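The genes described here are 8 mouse genes that answer to glucocorticoid hormone: the receptor gene Nr3c1 and its targets Fkbp5, Tsc22d3, Sgk1, Zbtb16, Klf9, Mt1 and Mt2. They were taken by symbol from the rows of both deposited count tables, and are 8 of the 19347 mouse genes that both tables hold. All 8 passed the filter on low counts in every tissue. RNA had been sequenced from liver, from muscle and from 2 regions of the hypothalamus at 6 times of day 4 h apart. One region is the suprachiasmatic nucleus (SCN), the seat of the central clock, and the other is the arcuate nucleus (ARC), which senses nutrients and governs feeding. Times are given as zeitgeber time (ZT), which counts hours from lights on, and ZT 12 is taken here as lights off because the labels give no light schedule. All animals were male FRGN mice aged 10 weeks, which lack Fah, Rag2 and Il2rg on a background crossed to the non-obese diabetic strain, so both arms lack lymphocytes and the enzyme that keeps hepatocytes alive without nitisinone. Their livers had been repopulated through the spleen with human hepatocytes (Hu) or, in the controls, with murine hepatocytes (Mu). Both arms had cycles of nitisinone, of sulfamethoxazole with trimethoprim and of dextrose in the water, and a high energy diet. Hu mice had been selected for more than 70% human repopulation. A host liver keeps its own non-hepatocyte cells and some of its own hepatocytes, and the values given for Hu liver are those of mouse rows only.

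Glucocorticoids leave the adrenal gland in a daily wave that, in nocturnal mice, rises towards lights off. Inside cells the hormone binds the glucocorticoid receptor, which leaves its chaperones, enters the nucleus and binds DNA as a pair of molecules, raising some genes within an hour or so and repressing others. Several of these genes also carry sites for clock proteins, so their daily pattern can come from the hormone, from the local clock or from feeding. No hormone level was analysed here.

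Liver had 15 Hu and 12 Mu libraries, muscle 15 and 12, ARC 10 and 12, and SCN 10 and 12, with 1 to 3 libraries for each arm and time. Mouse rows held 97.1 to 118 M (1 M is 1000000) counts in Mu livers and 7.70 to 87.9 M in Hu livers, where human rows took 15.9 to 93.1% of the counts. That share was under 70% in 11 of 15 Hu livers. Muscle libraries held 43.1 to 92.1 M counts and brain libraries 23.7 to 47.1 M. Nothing states that libraries of a group came from separate mice, so p-values measure the spread between these libraries. Levels are CPM, the counts of a gene in each 1000000 mouse counts of its library, after scaling by the trimmed mean of M values (TMM). A gene's CPM is compared only with its own values, since CPM does not allow for transcript length. For the 6 genes that mark SCN neurons (Avp, Vip, Prok2, Nms, Six6 and Lhx1), the summed level, most of it Avp, was lower and not higher in the libraries labelled SCN. It had a median of 96.0 CPM in Mu and 74.4 in Hu, against 229.2 and 228.5 in ARC. Six6 had a median of 0.751 and 0.908 in SCN and of 9.58 and 9.07 in ARC. The summed ARC neuron markers (such as Agrp, Npy and Pomc) were higher in the libraries labelled ARC, with a median of 144.9 CPM in Mu and 134.5 in Hu against 31.1 and 24.5 in those labelled SCN. The labels' names for the brain regions are kept.

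Tsc22d3 was called rhythmic in both arms of liver, muscle and ARC. Both liver calls and the Hu ARC call were lost under some settings given with the gene or the liver scaling. The fitted peaks lay between ZT 15.1 and 16.7 in Mu and between ZT 13.1 and 13.7 in Hu. Fkbp5 swung 7.41-fold from trough to peak in Mu liver and 1.86-fold in Hu liver. Sgk1 and Klf9 were called rhythmic in Mu muscle, and both calls were lost with time as a factor. The metallothioneins Mt1 and Mt2 were higher in Hu than in Mu in both liver and muscle. No member differed in level between arms in ARC or SCN by the test.

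A cosine curve with a 24 h period was fitted to each arm, and a gene was called rhythmic where edgeR's quasi-likelihood test, with Benjamini-Hochberg adjustment over all genes of the tissue, gave an adjusted p under 0.05. All adjusted p-values here are of that kind. In Mu liver 6 of 8 members were called, all but Sgk1 and Klf9, where 17.3% of all genes were called. In Hu liver 1 member was called, Tsc22d3, where 0.167% of all genes were called. In Mu muscle 6 of 8 were called, all but Mt1 and Mt2, against 5.31% of all genes. In Hu muscle Fkbp5, Tsc22d3, Zbtb16, Mt1 and Mt2 were called, 5 of 8 against 7.78% of all genes. In ARC, Fkbp5, Tsc22d3 and Mt1 were called in Mu, 3 of 8 against 1.41%, and Tsc22d3 alone in Hu, 1 of 8 against 0.0995%. DESeq2 called 5 in Mu ARC, with Sgk1 and Mt2 added, and 3 in Hu ARC, with Sgk1 and Zbtb16 added. In SCN no member was called in Mu, where 0.207% of all genes were, or in Hu, where 0.00666% were. At an unadjusted p under 0.05 the SCN count was 4 members in Mu and 4 in Hu, and DESeq2 called Tsc22d3 and Zbtb16 in Mu and Sgk1 in Hu. Single libraries decided part of these counts. The Mu muscle count was 2 without ZT10 replicate 1 or ZT18 replicate 1, and 3 without replicate 2 of ZT2, ZT6 or ZT10 or either Mu library of ZT14. The Mu ARC count was 1 without either Mu library of ZT6 or replicate 1 of ZT14. The Mu SCN count was 1 without the Hu SCN library of ZT22 or replicate 1 of ZT18 in Hu.

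The liver counts rest on how a Hu liver is scaled. With library sizes taken from human and mouse rows together and no TMM, the calls in Mu liver fell from 6 to 1. Those in Hu liver fell from 1 to 0. Human rows took at most 0.0204% of the counts of a Mu liver, but both arms shared the fit and its estimate of spread. With each arm fitted alone, only Nr3c1 lost its Mu liver call (adjusted p = 0.0555). In bulk tissue, fewer cells of a type and less RNA per cell cannot be told apart.

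**Figure D1:**
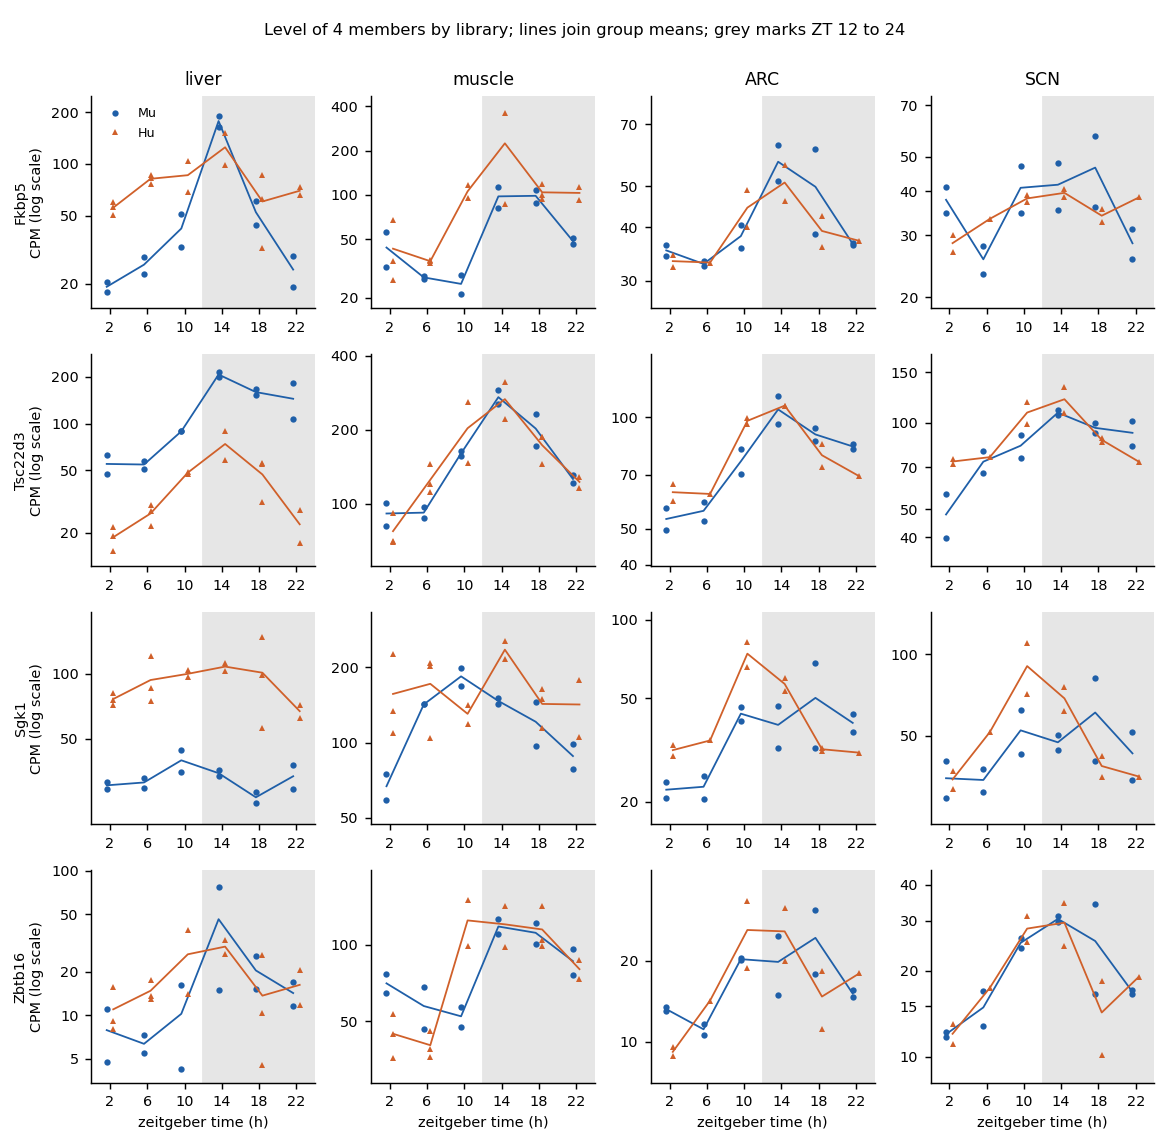
Level in CPM (log axis) of Fkbp5, Tsc22d3, Sgk1 and Zbtb16 (rows) against zeitgeber time in liver, muscle, ARC and SCN (columns); each circle is a Mu library, each triangle a Hu library, lines join group means and grey marks ZT 12 to 24. Fkbp5 in Mu liver stands at 164 and 190.4 CPM at ZT14 and at 60.4 CPM or less at the other times, and 1 Hu muscle library at ZT14 stands at 361 CPM.

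Nr3c1 encodes the glucocorticoid receptor itself (on chromosome 18). In Mu liver its level was 53.7 and 115 CPM at ZT2, 116 and 71.6 at ZT6, 96.3 and 115 at ZT10, 129.8 and 140.1 at ZT14, 148 and 165 at ZT18 and 137 and 109 at ZT22. In Hu liver it was 71.2, 97.1 and 69.4 CPM at ZT2, 89.6, 87.2 and 88.6 at ZT6, 97.5 and 106 at ZT10, 96.4 and 97.9 at ZT14, 90.6, 84.9 and 126 at ZT18 and 81.8 and 73.1 at ZT22. The Mu livers were highest at ZT18, and 5 of the 6 Mu livers taken from ZT14 to ZT22 lay above every Hu liver. The rhythm was called in Mu (peak ZT 16.8 ± 0.978 h, 1.78-fold from trough to peak, adjusted p = 0.0231) and was not called in Hu (adjusted p = 0.439). The Mu call was lost with each arm fitted alone (adjusted p = 0.0555), with time as a factor (0.299) and with library sizes from all rows (0.8). Without Mu liver replicate 2 at ZT6 the adjusted p in Mu was 0.0916, and without replicate 2 at ZT18 it was 0.0854.

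Mu muscle had a receptor rhythm at nearly the same hour. Its Nr3c1 level was 89.6 and 96.4 CPM at ZT2, 86.4 and 99.7 at ZT6, 94.9 and 110.3 at ZT10, 116 and 129 at ZT14, 174 and 143 at ZT18 and 129 and 119 at ZT22, and the 2 libraries of ZT18 were above every other Mu muscle library. The fitted peak was at ZT 17.6 ± 0.826 h with a swing of 1.67-fold (adjusted p = 0.0185), lost without Mu replicate 1 at ZT18 (0.0975). With time as a factor the Mu muscle call was lost as well (adjusted p = 0.0833). Hu muscle ran from 67.1 to 126 CPM with a median of 104, with overlapping times, and its curve was not called (adjusted p = 0.918). The test of a different rhythm between the arms did not pass in muscle (adjusted p = 0.281) or liver (0.268). In ARC the receptor gene ran from 139.8 to 180.2 CPM with a median of 157 in Mu and from 147 to 180.1 CPM with a median of 163 in Hu, with no called rhythm. The arms overlapped in ARC.

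Fkbp5 encodes a co-chaperone that binds the receptor complex and lowers its affinity for hormone, so its own induction is a brake on the signal. The gene lies at chr17:28398753-28486149 (GRCm38.p6). Its RefSeq promoter window, 250 bases before to 50 after the start, is chr17:28486100-28486399 on the minus strand. It is shown because it holds the clock protein site CACGTG (E-box, in capitals) but no copy of TGTTCT, the single site of 1 receptor molecule, on either strand. A match is a description of letters and not a bound site.
Fkbp5 promoter: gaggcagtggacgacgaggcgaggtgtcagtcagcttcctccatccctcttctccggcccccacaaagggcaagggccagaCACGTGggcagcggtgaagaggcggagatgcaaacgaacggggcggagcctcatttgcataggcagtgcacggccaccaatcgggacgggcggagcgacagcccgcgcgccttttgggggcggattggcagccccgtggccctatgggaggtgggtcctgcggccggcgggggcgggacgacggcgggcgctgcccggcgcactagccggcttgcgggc

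In Mu liver Fkbp5 was 18.1 and 20.4 CPM at ZT2, 28.9 and 22.9 at ZT6, 51.3 and 32.8 at ZT10, 164 and 190.4 at ZT14, 60.4 and 44.2 at ZT18 and 19.3 and 29.2 at ZT22. In Hu liver it was 55.9, 50.5 and 60.2 CPM at ZT2, 86.00, 76.3 and 83.1 at ZT6, 103 and 68.3 at ZT10, 98.9 and 151 at ZT14, 86.3, 62.3 and 32.5 at ZT18 and 73.4 and 65.9 at ZT22. Both Mu libraries at ZT14 were above every other liver library, while at ZT2, ZT6, ZT10 and ZT22 all Hu livers were above all Mu livers. The Mu rhythm peaked at ZT 14.1 ± 0.501 h (adjusted p = 4.5e-05) and kept its call in all 27 refits that left out 1 liver library. Hu liver was not called (1.86-fold from trough to peak, adjusted p = 0.324). The arms differed in rhythm (adjusted p = 0.0465), a call lost in 20 of 27 refits that left out 1 library, where the adjusted p reached 0.135. In the scaling by all rows it was lost as well. Time-averaged level was higher in Hu by 0.84 ± 0.18 log2 units (SE, adjusted p = 0.000226), and by 0.13 (adjusted p = 0.659) with library sizes from all rows.

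In Mu muscle Fkbp5 was 55.6 and 32.2 CPM at ZT2, 26.8 and 28.3 at ZT6, 28.5 and 21.2 at ZT10, 114 and 81.7 at ZT14, 88.5 and 109 at ZT18 and 46.5 and 50.6 at ZT22. In Hu muscle it was 26.6, 67.2 and 35.6 CPM at ZT2, 35.5, 34.4 and 36.4 at ZT6, 116 and 95.1 at ZT10, 87.3 and 361 at ZT14, 99.4, 94.5 and 119 at ZT18 and 92.4 and 114 at ZT22. At ZT10 both Hu libraries were at 95.1 CPM or more and both Mu libraries at 28.5 CPM or less. All Hu libraries were above all Mu libraries at ZT6 and ZT22 as well, and at ZT2, ZT14 and ZT18 the arms overlapped. The rhythm was called in Mu (peak ZT 17.7 ± 0.903 h, adjusted p = 0.0325) and in Hu (peak ZT 15.5 ± 0.718 h, adjusted p = 0.00533). The Mu call was lost in 9 of 27 refits, and the Hu call was kept in all 27. With time as a factor the Mu call was lost too (adjusted p = 0.0577). One Hu library, replicate 2 of ZT14, stood at 361 CPM against 87.3 CPM in the other library of that time; without it the Hu rhythm had an adjusted p of 0.0306.

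In Mu ARC Fkbp5 was 36.3 and 34.3 CPM at ZT2, 32.4 and 33.3 at ZT6, 40.6 and 35.7 at ZT10, 62.6 and 51.5 at ZT14, 61.1 and 38.6 at ZT18 and 36.8 and 36.4 at ZT22. In Hu ARC it was 32.3 and 34.4 CPM at ZT2, 33.1 at ZT6, 49.05 and 40.01 at ZT10, 46.1 and 55.97 at ZT14, 36.00 and 42.5 at ZT18 and 37.2 at ZT22. Every library of ZT14 was at 46.1 CPM or more, and of the others only 1 Mu library of ZT18 and 1 Hu library of ZT10 were. The Mu rhythm was called (peak ZT 15.7 ± 0.746 h, 1.69-fold, adjusted p = 0.0237), and was lost without either Mu library of ZT6 or of ZT14 (adjusted p of 0.05 to 0.0694). The Mu call was also lost with each arm fitted alone (adjusted p = 0.106) and with time as a factor (adjusted p = 0.139). The Hu rhythm was not called (adjusted p = 0.38). SCN libraries ran from 23.3 to 57.2 CPM with a median of 34.98 in Mu and from 26.8 to 40.5 CPM with a median of 36.4 in Hu, with neither rhythm called.

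Tsc22d3, also called GILZ, encodes a leucine zipper protein that carries much of the anti-inflammatory action of glucocorticoids. It lies at chrX:140539528-140600522 (GRCm38.p6) and has 3 RefSeq promoter windows. The one shown, chrX:140600473-140600772 on the minus strand, belongs to the gene's outermost start and is the only one of the 3 with a receptor single site, TGTTCT, in capitals.
Tsc22d3 promoter: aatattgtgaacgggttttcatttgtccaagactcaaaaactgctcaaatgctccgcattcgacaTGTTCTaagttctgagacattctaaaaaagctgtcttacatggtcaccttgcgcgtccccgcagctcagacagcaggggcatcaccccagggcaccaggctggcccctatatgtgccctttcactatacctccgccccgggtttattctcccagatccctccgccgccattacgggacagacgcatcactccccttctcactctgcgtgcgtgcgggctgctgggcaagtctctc

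In Mu liver Tsc22d3 was 62.7 and 47.5 CPM at ZT2, 57.8 and 51.4 at ZT6, 89.3 and 88.97 at ZT10, 198 and 214 at ZT14, 152 and 167 at ZT18 and 107 and 181 at ZT22. In Hu liver it was 18.9, 21.8 and 15.2 CPM at ZT2, 30.1, 22.1 and 27.3 at ZT6, 49.1 and 47.8 at ZT10, 89.8 and 58.1 at ZT14, 54.7, 31.2 and 55.5 at ZT18 and 28.03 and 17.1 at ZT22. The Hu livers of each time lay below the Mu livers of that time, and Mu libraries were still at 107 CPM or more at ZT22 while Hu libraries were at 28.0 CPM or less. The rhythm peaked at ZT 16.7 ± 0.461 h in Mu (adjusted p = 5.63e-05) and at ZT 13.7 ± 0.435 h in Hu (adjusted p = 0.000256), with swings of 4.15-fold and 3.88-fold. Both calls were kept in all 27 refits that left out 1 liver library. With library sizes from all rows neither rhythm passed (adjusted p = 0.0619 in Mu and 0.176 in Hu). The difference in rhythm was called (adjusted p = 0.0498) and lost in 20 of 27 refits. The time-averaged level was lower in Hu, with Hu minus Mu at -1.57 ± 0.12 log2 units (adjusted p = 4.38e-11).

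In Mu muscle Tsc22d3 was 101 and 81.7 CPM at ZT2, 96.8 and 87.5 at ZT6, 156 and 165 at ZT10, 254 and 289 at ZT14, 172 and 232 at ZT18 and 121 and 131 at ZT22. In Hu muscle it was 91.8, 69.7 and 70.9 CPM at ZT2, 111, 120.1 and 145 at ZT6, 146 and 259.8 at ZT10, 312 and 221 at ZT14, 187, 187 and 146 at ZT18 and 129 and 116 at ZT22. In both arms the mean was lowest at ZT2 and highest at ZT14. Every library of ZT10 and ZT14 was above every library of ZT22 and ZT2 in its arm. The peaks were at ZT 15.1 ± 0.450 h in Mu and ZT 13.6 ± 0.401 h in Hu, with swings of 3.05-fold and 3.04-fold (adjusted p = 0.000133 and 4.61e-05). Levels did not differ by the test (0.03 ± 0.09 log2 units, adjusted p = 0.824).

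In Mu ARC Tsc22d3 was 56.8 and 49.5 CPM at ZT2, 52.6 and 59.2 at ZT6, 70.2 and 81.9 at ZT10, 114 and 96.2 at ZT14, 93.6 and 86.3 at ZT18 and 84.7 and 82.3 at ZT22. In Hu ARC it was 59.6 and 66.02 CPM at ZT2, 62.1 at ZT6, 95.95 and 99.8 at ZT10, 108 and 108 at ZT14, 84.5 and 73.5 at ZT18 and 69.3 at ZT22. At ZT2, ZT6 and ZT10 the Hu libraries were above the Mu libraries, and at ZT18 and ZT22 they were below them. Peaks stood at ZT 15.99 ± 0.445 h in Mu (adjusted p = 0.000456) and ZT 13.1 ± 0.620 h in Hu (adjusted p = 0.0135), and the swings were 1.95-fold and 1.74-fold. The Hu call was lost in 4 refits that left out 1 Hu library, those of ZT2 replicate 1, ZT10 replicate 2 and both of ZT14, where the adjusted p reached 0.101. It was also lost with each arm fitted alone (adjusted p = 0.094) and with time as a factor (adjusted p = 0.0602).

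In Mu SCN Tsc22d3 was 56.4 and 39.6 CPM at ZT2, 67.02 and 79.5 at ZT6, 91.1 and 75.5 at ZT10, 111 and 106 at ZT14, 100.2 and 92.02 at ZT18 and 83.4 and 101 at ZT22. In Hu SCN it was 72.1 and 74.7 CPM at ZT2, 76.01 at ZT6, 118 and 99.5 at ZT10, 108 and 133 at ZT14, 85.8 and 88.8 at ZT18 and 73.2 at ZT22. The ZT2 libraries were lowest in Mu, and in Hu every ZT10 and ZT14 library was above every other Hu library. Neither rhythm passed (adjusted p = 0.0802 in Mu and 0.614 in Hu), with swings of 1.85-fold and 1.69-fold.

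Sgk1 encodes a kinase that raises sodium transport and is induced by both glucocorticoids and mineralocorticoids. It lies at chr10:21882184-21999903 (GRCm38.p6) and has 6 RefSeq promoter windows. The one shown, chr10:21993640-21993939 on the plus strand, holds the full palindrome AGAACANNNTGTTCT, which occurs in 3 of 32851 RefSeq promoter windows (0.00913%). Capitals mark the palindrome and, near the left end, an E-box (CACGTG) run together with the single site TGTTCT that overlaps it.
Sgk1 promoter: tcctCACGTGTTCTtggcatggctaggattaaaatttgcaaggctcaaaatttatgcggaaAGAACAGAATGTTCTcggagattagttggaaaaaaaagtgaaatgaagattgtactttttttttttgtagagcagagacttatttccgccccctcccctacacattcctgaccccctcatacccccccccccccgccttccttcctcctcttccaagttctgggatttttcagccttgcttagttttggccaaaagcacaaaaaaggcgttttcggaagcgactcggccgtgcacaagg

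In Mu muscle Sgk1 was 58.9 and 75.04 CPM at ZT2, 142 and 142 at ZT6, 199 and 169 at ZT10, 142 and 151 at ZT14, 96.8 and 146 at ZT18 and 98.6 and 78.2 at ZT22. In Hu muscle it was 227, 109 and 134 CPM at ZT2, 105, 203 and 209 at ZT6, 119 and 142 at ZT10, 216 and 256 at ZT14, 164, 149.6 and 115 at ZT18 and 179 and 106 at ZT22. Mu muscle was highest at ZT10 and lowest at ZT2, while Hu libraries of 1 time lay far apart, from 109 to 227 CPM at ZT2, and overlapped across times. The Mu rhythm was called (peak ZT 11.6 ± 0.932 h, adjusted p = 0.045) and lost in 12 of 27 refits, and Hu was not called (adjusted p = 0.706). The Mu call was also lost with time as a factor (adjusted p = 0.166) and without a filter on low counts (0.0577). The difference in rhythm did not pass (adjusted p = 0.437).

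In Mu ARC Sgk1 was 23.8 and 20.7 CPM at ZT2, 20.4 and 25.2 at ZT6, 40.8 and 46.4 at ZT10, 46.7 and 32.3 at ZT14, 68.1 and 32.2 at ZT18 and 36.97 and 43.4 at ZT22. In Hu ARC it was 33.1 and 30.1 CPM at ZT2, 34.4 at ZT6, 82.2 and 66.1 at ZT10, 59.95 and 53.5 at ZT14, 31.4 and 32.3 at ZT18 and 30.9 at ZT22. Hu ARC was high only at ZT10 and ZT14, whereas in Mu the highest library was 1 of the 2 at ZT18. The fitted peaks were ZT 16.01 ± 0.846 h in Mu and ZT 10.8 ± 0.776 h in Hu, but neither rhythm passed (adjusted p = 0.069 and 0.145), and the difference in rhythm did not pass (adjusted p = 1). In Mu SCN it was 29.5 and 40.4 CPM at ZT2, 30.96 and 37.9 at ZT6, 62.1 and 42.8 at ZT10, 50.3 and 44.5 at ZT14, 81.7 and 40.3 at ZT18 and 34.5 and 51.8 at ZT22. In Hu SCN it was 31.9 and 37.2 CPM at ZT2, 51.7 at ZT6, 109.8 and 71.1 at ZT10, 61.9 and 75.7 at ZT14, 35.4 and 42.1 at ZT18 and 35.4 at ZT22. The shape was that of ARC: the ZT10 and ZT14 libraries of Hu were above all other Hu libraries, and 1 Mu library of ZT18, replicate 1 in both regions, was the highest of its arm.

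In liver Sgk1 ran from 25.1 to 44.4 CPM with a median of 32.4 in Mu and from 56.4 to 148 CPM with a median of 85.99 in Hu. All 15 Hu livers were above every Mu liver. The level was higher in Hu by 1.48 ± 0.11 log2 units (adjusted p = 6.61e-11), kept in all 27 refits that left out 1 library, and by 0.69 (adjusted p = 0.00176) with library sizes from all rows. No rhythm was called in either arm of liver.

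Zbtb16, also called PLZF, encodes a zinc finger transcription factor, and Klf9 a zinc finger factor that answers both to the hormone and to the clock. They lie at chr9:48651797-48836225 and chr19:23141226-23168129 (GRCm38.p6). In Mu muscle Zbtb16 was 76.5 and 64.4 CPM at ZT2, 68.3 and 46.5 at ZT6, 56.97 and 47.6 at ZT10, 126 and 109.9 at ZT14, 122 and 101 at ZT18 and 95.9 and 76.3 at ZT22. In Hu muscle it was 35.95, 53.4 and 44.7 CPM at ZT2, 45.9, 38.8 and 36.2 at ZT6, 150.2 and 98.5 at ZT10, 98.1 and 142 at ZT14, 141, 98.7 and 104 at ZT18 and 87.02 and 73.1 at ZT22. At ZT10 the Hu libraries stood at 98.5 and 150.2 CPM, while the Mu libraries were at 57.0 CPM or less. All Hu libraries were below all Mu libraries at ZT2 and ZT6. The rhythm was called in both (peak ZT 17.9 ± 0.921 h in Mu, adjusted p = 0.0379; peak ZT 15.1 ± 0.539 h in Hu, adjusted p = 0.000633), with swings of 2.17-fold and 3.43-fold. The Mu call was lost in 9 of 27 refits and the Hu call in none. With time as a factor the Mu call was lost too (adjusted p = 0.0512).

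In Mu liver Zbtb16 ran from 4.27 to 77.5 CPM with a median of 13.3, and its call (adjusted p = 0.0142) rests on 1 library. Replicate 2 of ZT14 stood at 77.5 CPM beside 15.1 CPM in replicate 1, and without it the adjusted p was 0.103. Hu liver ran from 4.53 to 38.9 CPM with a median of 13.98, overlapped Mu and was not called (adjusted p = 0.391). In Mu SCN Zbtb16 was 12.2 and 11.7 CPM at ZT2, 12.8 and 16.9 at ZT6, 26.1 and 24.01 at ZT10, 31.04 and 29.7 at ZT14, 34.3 and 16.6 at ZT18 and 16.6 and 17.1 at ZT22, and in Hu SCN 11.1 and 12.97 CPM at ZT2, 17.4 at ZT6, 31.1 and 25.1 at ZT10, 24.4 and 34.6 at ZT14, 10.1 and 18.4 at ZT18 and 19.1 at ZT22. In both arms of SCN every library of ZT10 and ZT14 was above every library of ZT22 and ZT2. The fitted peaks were at ZT 14.3 ± 0.742 h and ZT 11.9 ± 0.938 h, and neither rhythm passed (adjusted p = 0.0729 and 0.581). In ARC that held in Hu and not in Mu, where 1 library of ZT14 was at 14.9 CPM. The ARC swings were 2.01-fold in Mu and 2.47-fold in Hu, neither called.

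In Mu muscle Klf9 was 118 and 106 CPM at ZT2, 146 and 153 at ZT6, 192 and 156 at ZT10, 149 and 187 at ZT14, 106 and 133 at ZT18 and 103 and 97.7 at ZT22. In Hu muscle it was 191, 151 and 142 CPM at ZT2, 148, 191 and 181 at ZT6, 173 and 179.9 at ZT10, 139.7 and 196 at ZT14, 155, 125 and 109.5 at ZT18 and 179 and 98.4 at ZT22. The highest Mu library was 1 of ZT10, and in Hu muscle libraries of the same time spread nearly as far as the times did. The Mu rhythm was called (peak ZT 10.7 ± 0.794 h, 1.79-fold, adjusted p = 0.0157; 0.0591 without Mu replicate 1 of ZT10). With time as a factor the Mu call was lost (adjusted p = 0.26). The Hu rhythm was not called (adjusted p = 0.15). In liver Klf9 ran from 19.8 to 95.00 CPM with a median of 57.9 in Mu and from 22.4 to 57.5 CPM with a median of 35.3 in Hu, and was lower in Hu, at -0.73 ± 0.18 log2 units for Hu minus Mu (adjusted p = 0.000595) with no called rhythm. In ARC Klf9 ran from 53.7 to 98.8 CPM with a median of 70.2 in Mu and from 59.5 to 98.02 CPM with a median of 75.4 in Hu. In SCN it ran from 54.9 to 86.00 CPM with a median of 65.3 and from 49.5 to 80.6 CPM with a median of 65.6. The arms overlapped in both regions, and no Klf9 rhythm was called there.

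Mt1 and Mt2 encode metallothioneins, small proteins that bind zinc and copper and are induced by metals, by glucocorticoids and in the acute phase response. They are neighbours at chr8:94178883-94180327 and chr8:94172618-94173567 (GRCm38.p6), and their transcripts are so alike that reads may have been shared between them. Both promoter windows (chr8:94178839-94179138 and chr8:94172368-94172667, plus strand) are shown with their metal response core sites in capitals, written TGCACNC or TGCGCNC on either strand. Mt1 has 3 such sites and Mt2 has 4, and neither window holds TGTTCT on either strand.
Mt1 promoter: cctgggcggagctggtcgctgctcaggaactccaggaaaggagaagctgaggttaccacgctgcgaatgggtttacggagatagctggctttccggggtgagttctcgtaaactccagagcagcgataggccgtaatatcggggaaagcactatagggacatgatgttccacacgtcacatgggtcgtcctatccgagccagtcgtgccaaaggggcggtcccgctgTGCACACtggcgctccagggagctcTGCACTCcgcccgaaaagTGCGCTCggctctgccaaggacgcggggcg
Mt2 promoter: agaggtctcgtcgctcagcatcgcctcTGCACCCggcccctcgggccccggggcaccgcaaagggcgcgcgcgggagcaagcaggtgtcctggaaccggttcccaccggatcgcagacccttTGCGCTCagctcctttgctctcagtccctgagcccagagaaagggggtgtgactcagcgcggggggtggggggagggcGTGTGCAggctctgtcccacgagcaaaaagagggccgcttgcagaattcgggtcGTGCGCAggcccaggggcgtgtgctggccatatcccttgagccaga

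In Mu muscle Mt1 ran from 7.95 to 16.6 CPM with a median of 11.2. In Hu muscle it was 7.40, 9.05 and 13.6 CPM at ZT2, 25.8, 15.1 and 9.19 at ZT6, 30.1 and 17.2 at ZT10, 31.6 and 424 at ZT14, 35.4, 8.79 and 13.8 at ZT18 and 9.46 and 13.97 at ZT22. Replicate 2 of ZT14 in Hu was more than 10 times above every other muscle library, for Mt1 and for Mt2 alike. For Mt2, Mu muscle ran from 1.73 to 6.66 CPM with a median of 4.76, and Hu muscle was 5.05, 12.9 and 6.73 CPM at ZT2, 17.1, 8.88 and 7.01 at ZT6, 26.2 and 11.3 at ZT10, 32.4 and 475 at ZT14, 24.5, 5.71 and 7.84 at ZT18 and 5.42 and 20.2 at ZT22. That library was also the highest of its tissue for Fkbp5. The Hu liver library with the same time and number was the highest Hu liver for Mt1 (162 CPM), Mt2 (174 CPM) and Fkbp5 (150.6 CPM), and the labels do not say whether both came from 1 mouse.

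With that library the Hu muscle rhythms of Mt1 (adjusted p = 0.00263) and Mt2 (adjusted p = 0.00522) were called. Without it neither was (adjusted p = 0.0513 and 0.181), and the count of rhythmic members in Hu muscle went from 5 to 3. The call of a higher level in Hu muscle was kept without it, at a smaller size. Mt1 was higher in Hu by 1.31 ± 0.38 log2 units (adjusted p = 0.0136) with it and by 0.61 without it (adjusted p = 0.0222). Mt2 was higher by 2.48 ± 0.48 (adjusted p = 0.00082) and by 1.61 (adjusted p = 0.000276).

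In Mu liver Mt1 was 45.9 and 10.5 CPM at ZT2, 18.9 and 21.2 at ZT6, 133 and 19.1 at ZT10, 18.3 and 14.9 at ZT14, 10.1 and 3.18 at ZT18 and 5.41 and 8.74 at ZT22. In Hu liver it was 38.1, 35.4 and 51.8 CPM at ZT2, 85.3, 47.7 and 60.7 at ZT6, 47.6 and 55.2 at ZT10, 27.9 and 162 at ZT14, 62.5, 24.9 and 33.5 at ZT18 and 36.3 and 28.6 at ZT22. Apart from ZT10 replicate 1, the Mu livers were at 45.9 CPM or less, and the arms overlapped. The Mu rhythms of Mt1 and Mt2 were called (adjusted p = 0.0113 and 0.0185), and without ZT10 replicate 1 neither was (adjusted p = 0.119 and 0.144). Mt2 in Mu liver ran from 2.13 to 85.5 CPM with a median of 8.47, and in Hu liver from 26.02 to 174 CPM with a median of 44.3. The level was higher in Hu liver by 1.42 ± 0.34 log2 units for Mt1 (adjusted p = 0.000556) and by 2.13 ± 0.36 for Mt2 (adjusted p = 8.73e-06). With library sizes from all rows the values were 0.66 (adjusted p = 0.0928) and 1.35 (adjusted p = 0.00173).

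In Mu ARC Mt1 was 80.2 and 75.5 CPM at ZT2, 95.3 and 102 at ZT6, 109 and 102 at ZT10, 159.6 and 112 at ZT14, 101 and 83.7 at ZT18 and 66.2 and 82.9 at ZT22, a rhythm with a peak at ZT 12.2 ± 0.801 h (adjusted p = 0.0417) that was lost in 15 of 22 refits leaving out 1 library. The Mu call was also lost with each arm fitted alone (adjusted p = 0.092) and with time as a factor (adjusted p = 0.109). Hu ARC ran from 68.3 to 126 CPM with a median of 111 and was not called. Mt2 ran from 29.6 to 81.8 CPM with a median of 52.5 in Mu ARC and from 36.9 to 71.96 CPM with a median of 61.9 in Hu ARC, with no called rhythm (adjusted p = 0.13 and 1). In SCN Mt1 had a median CPM of 80.3 in Mu and of 104 in Hu, and Mt2 of 45.1 and 59.3 CPM. The SCN differences between arms, 0.35 ± 0.09 and 0.39 ± 0.12 log2 units, had unadjusted p of 0.00146 and 0.00374 and did not pass (adjusted p = 1 and 1).

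**Figure D2:**
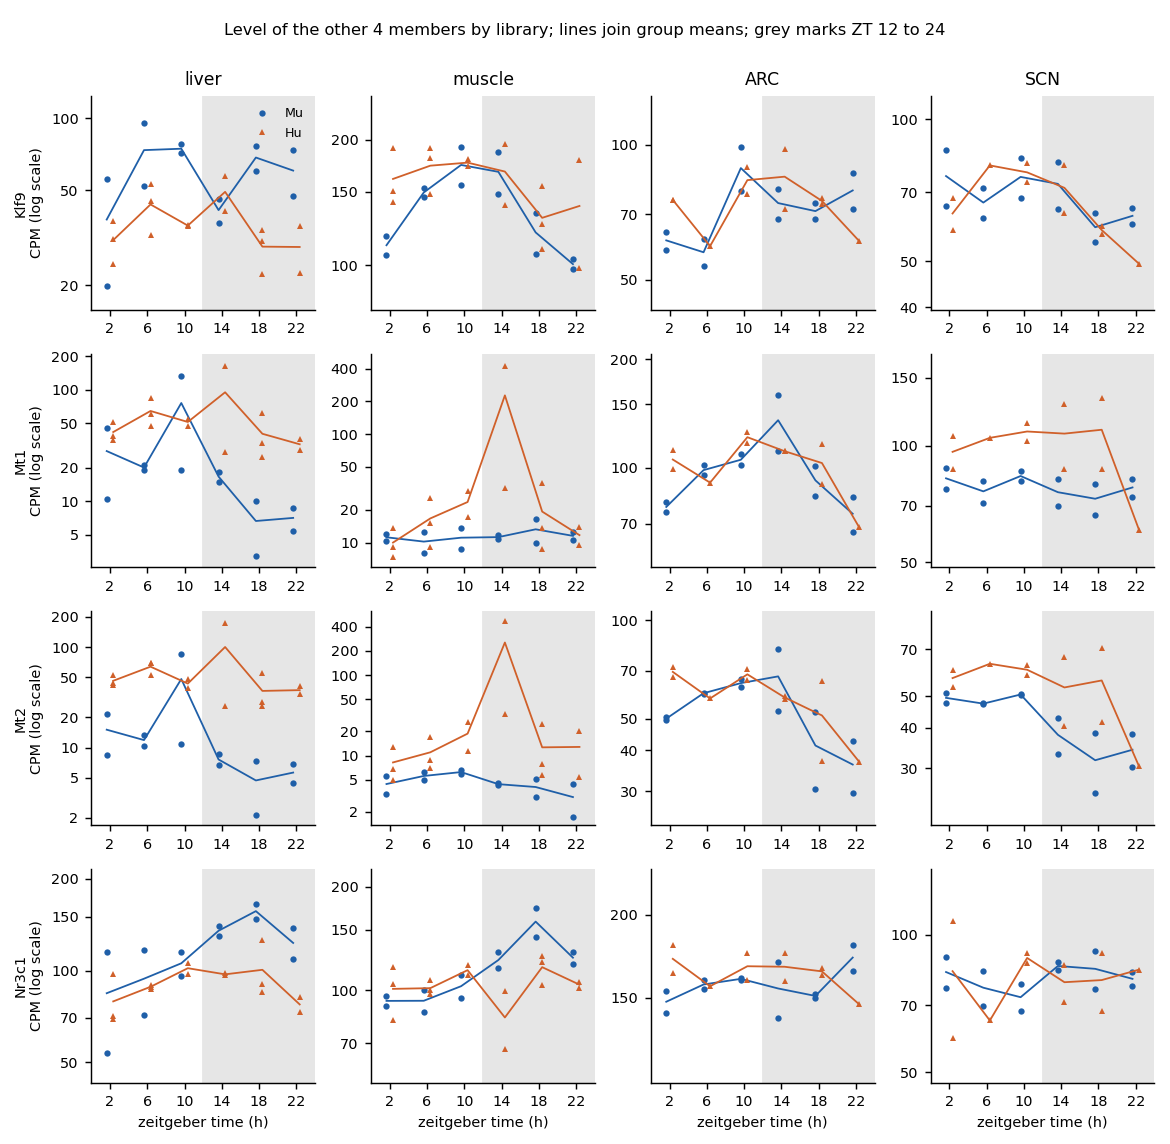
Level in CPM (log axis) of Klf9, Mt1, Mt2 and Nr3c1 (rows) against zeitgeber time in liver, muscle, ARC and SCN (columns); circles are Mu and triangles Hu libraries, lines join group means and grey marks ZT 12 to 24. A single Hu muscle library at ZT14 reads 424 CPM for Mt1 and 475 CPM for Mt2, and the Nr3c1 values of ARC stay between 139.8 and 180.2 CPM.

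Among 13 RefSeq promoter windows (GRCm38.p6) of 6 members, the single site TGTTCT was found in 4 and the palindrome in 1. The E-box CACGTG was found in 2 and the D-box TTATGTAA in 0, searching both strands. In all 32851 windows of the same 300 bases the shares were 19% for the single site, 0.00913% for the palindrome, 7.15% for the E-box and 0.938% for the D-box. The metal cores TGCACNC and TGCGCNC occur in 12.6% and 15.4% of all windows, and in 2 and 3 of the members' windows. Every palindrome also counts as a single site. Zbtb16 had no window among those searched. Windows on chromosome 18, where Nr3c1 lies, were left out for members but kept among all 32851. These genes are named only.

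The test of a different rhythm between arms passed for 2 members in liver, Fkbp5 and Tsc22d3, where 1.28% of all genes passed. It passed for no member in muscle, where 0.0704% of genes passed, nor in ARC or SCN, where 0% passed. At an unadjusted p under 0.05 the counts were 4 in muscle, 2 in ARC and 1 in SCN, and DESeq2 called 0 in each of these. Fitted peaks are given side by side for this reason, as a description. Over all 8 members and 4 tissues the fitted peak was earlier in Hu in 22 of 32 combinations and later in 10. The share over all genes is not given here, and several clock genes named below also peaked earlier in Hu. For Fkbp5, Tsc22d3 and Zbtb16, named together after these values were seen, it was earlier in 12 of 12, by 1.55 to 3.42 h. Among these, rhythms were called in both arms only for Tsc22d3 in liver, muscle and ARC and for Fkbp5 and Zbtb16 in muscle. For the other 5 members the fitted peak was earlier in 10 of 20 and later in 10. Later Hu peaks included those of Mt1 in liver (2.83 ± 2.00 h), Mt2 in liver (2.65 ± 2.47 h), Sgk1 in liver (2.66 ± 3.25 h) and Mt2 in muscle (4.86 ± 4.32 h), each of a gene not called in both arms. Tissues of a mouse may share an animal, so these values are not independent.

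For Tsc22d3, Hu minus Mu was -3.00 ± 0.634 h in liver (SE), -1.55 ± 0.602 h in muscle, -2.86 ± 0.764 h in ARC and -2.77 ± 1.26 h in SCN. Leaving out 1 library at a time gave -3.16 to -2.33 h, -1.80 to -1.27 h, -3.53 to -2.35 h and -3.30 to -1.99 h. All 4 values kept their sign. For Fkbp5 the differences were -2.39 ± 1.47 h, -2.17 ± 1.15 h, -2.12 ± 1.35 h and -1.79 ± 2.98 h in the same order of tissues. All 4 Fkbp5 values are within 2 SE of 0. Leaving out 1 library at a time gave -3.26 to -1.37 h, -2.80 to -1.57 h, -2.72 to -1.38 h and -2.96 to -0.0524 h, and the SCN value nearest 0 was that without Mu replicate 1 of ZT18. For Zbtb16 the differences were -3.42 ± 1.86 h, -2.75 ± 1.07 h, -2.89 ± 1.48 h and -2.45 ± 1.20 h, and leaving out 1 library gave -4.74 to -2.51 h, -3.33 to -1.96 h, -3.62 to -1.95 h and -2.94 to -1.26 h. With liver totals of all rows the liver difference was -9.36 h for Fkbp5 and -7.18 h for Zbtb16, against -3.42 h for Tsc22d3.

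For Sgk1 the fitted peaks of the brain regions differed by -5.25 ± 1.15 h in ARC and -4.93 ± 1.42 h in SCN. These stem from rhythms that did not pass in either arm by edgeR, while DESeq2 called Sgk1 in both arms of ARC and in Hu SCN. The clock gene Per1, itself a glucocorticoid target, differed by -0.954 ± 0.909 h in liver and -1.71 ± 0.749 h in muscle. Dbp, a clock output gene without that dependence as its main input, differed by -0.559 ± 0.574 h in liver, -4.27 ± 0.730 h in muscle, -1.55 ± 0.693 h in ARC and -1.08 ± 1.52 h in SCN. In muscle the shift of Dbp was thus larger than that of Tsc22d3, and in liver it was smaller. Other clock genes in liver differed by -2.49 ± 0.523 h (Per2), -1.14 ± 0.651 h (Nr1d2), -0.315 ± 0.418 h (Nr1d1) and 0.381 ± 0.924 h (Arntl). In the same order they differed by -3.22 ± 0.668 h, -4.55 ± 0.619 h, -3.58 ± 0.681 h and -4.14 ± 0.89 h in muscle. In ARC and SCN all of them were earlier in Hu, by 0.637 to 2.44 h. Of these brain values only that of Arntl in ARC came from rhythms called in both arms. The Per2 values were -0.697 ± 1.55 h in ARC and -0.637 ± 1.35 h in SCN. In liver the Hu rhythms of Per1 and Arntl were not called (adjusted p = 0.0941 and 0.119). The differences between genes were not tested.

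**Figure D3:**
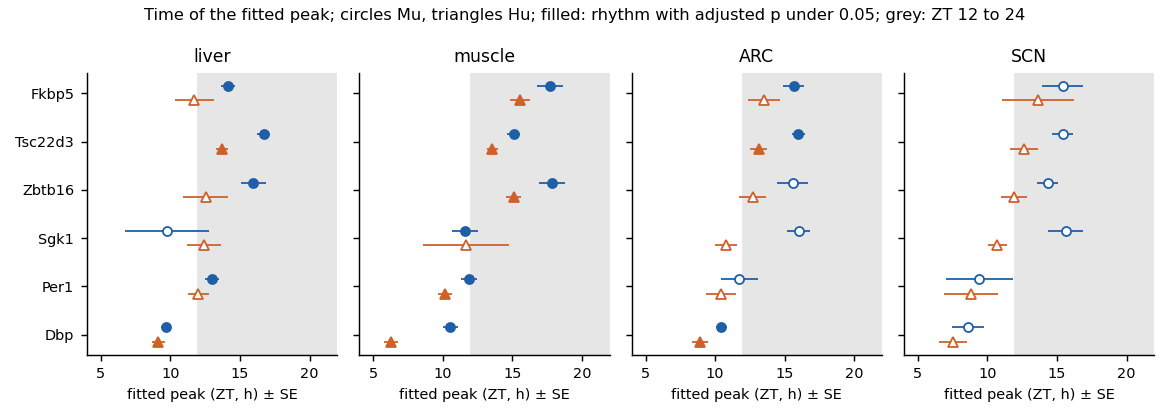
Time of the fitted peak in h of zeitgeber time, with its SE as a bar, for Fkbp5, Tsc22d3, Zbtb16 and Sgk1 and the clock references Per1 and Dbp in liver, muscle, ARC and SCN; circles are Mu, triangles Hu, filled where the rhythm passed, and grey marks ZT 12 to 24. The triangles of Fkbp5, Tsc22d3 and Zbtb16, named together after these values were seen, stand left of the circles in every tissue, by 1.55 to 3.42 h. For the other 5 members, of which only Sgk1 is shown, the Hu peak was earlier in 10 of 20 combinations and later in 10.

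A second view used no curve: the mean of ZT10 and ZT14, around lights off, minus the mean of ZT22 and ZT2, around lights on. This difference was above 0 for 8 of 8 members in Mu liver and in Hu liver, for 7 of 8 in Mu muscle, Hu muscle and Mu ARC, for 8 of 8 in Hu ARC and Hu SCN, and for 6 of 8 in Mu SCN. Those signs count members whether or not they passed. Over all genes the median of this difference ran from -0.0202 in Mu muscle to 0.00685 in Mu ARC. Fkbp5 alone passed in Mu liver, at 2.00 ± 0.25 (adjusted p = 0.000125), 1 of 8 members against 1.63% of all genes. Tsc22d3 alone passed in Hu liver, at 1.54 ± 0.21 (adjusted p = 0.00194), 1 of 8 against 0.0935%. In both of these every library around lights off was above every library around lights on. With liver totals of all rows the values were 2.03 (adjusted p = 0.214) and 0.64 (adjusted p = 0.159), and neither passed. The Hu count was 2 without Hu liver replicate 3 of ZT18.

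In Mu muscle 3 of 8 members passed against 1.85% of all genes: Tsc22d3 at 0.96 ± 0.17 (adjusted p = 0.00732), Sgk1 at 1.10 ± 0.24 (adjusted p = 0.025) and Klf9 at 0.69 ± 0.17 (adjusted p = 0.047). The 4 libraries around lights off were above the 4 around lights on for each of these genes. The count fell to 0 without Mu replicate 2 of ZT14 and to 1 without any 1 of the other 7 Mu libraries of those times. Klf9 lost its call in 19 of 27 refits that left out 1 library and without a filter on low counts (adjusted p = 0.0577), Sgk1 in 8 and Tsc22d3 in 1. In Hu muscle 5 of 8 passed against 4% of all genes: Fkbp5 at 1.21 ± 0.31 (adjusted p = 0.0372), Tsc22d3 at 1.25 ± 0.16 (adjusted p = 0.000836), Zbtb16 at 1.03 ± 0.17 (adjusted p = 0.00469), Mt1 at 2.76 ± 0.55 (adjusted p = 0.0116) and Mt2 at 2.74 ± 0.63 (adjusted p = 0.0245). Tsc22d3 and Zbtb16 passed in all 27 refits that left out 1 library. Fkbp5, Mt1 and Mt2 did not pass without ZT14 replicate 2 (0.53, 1.34 and 1.26, adjusted p = 0.405, 0.151 and 0.341), and the count was also 2 without ZT10 replicate 1 or either ZT22 library.

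In Mu ARC 2 of 8 passed against 0.119% of all genes, Tsc22d3 at 0.43 ± 0.08 (adjusted p = 0.0417) and Mt1 at 0.65 ± 0.11 (adjusted p = 0.0351), and 1 or both calls were lost in 17 of 22 refits that left out 1 library. In Hu ARC Tsc22d3 passed at 0.64 ± 0.09 (adjusted p = 0.00859), 1 of 8 against 0.0464%, and was lost without Hu replicate 1 of ZT2 (adjusted p = 0.0727), while the Hu count was 2 without either Mu library of ZT18 and 3 by DESeq2, with Sgk1 and Zbtb16 added. In SCN no member passed in Mu, where 0.02% of genes did, or in Hu, where 0.00666% did. The SCN counts at an unadjusted p under 0.05 were 3 and 6 members, and DESeq2 called 2 in each arm, Tsc22d3 and Zbtb16 in Mu and Tsc22d3 and Sgk1 in Hu. The Hu values in SCN were 1.17 ± 0.26 for Sgk1, 0.93 ± 0.25 for Zbtb16 and 0.64 ± 0.13 for Tsc22d3.

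The difference of that contrast between arms passed for no member. The share of all genes that passed was 0.24% in liver and 0% in muscle, ARC and SCN. At an unadjusted p under 0.05 the counts were 2 in liver (Fkbp5 at -1.26 ± 0.34 and Tsc22d3 at 0.94 ± 0.30, Hu minus Mu), 5 in muscle, 1 in ARC and 2 in SCN. DESeq2 called Fkbp5 in liver, Zbtb16 and Mt1 in muscle and none in ARC or SCN. Without Hu muscle replicate 1 of ZT14 the edgeR count in muscle was 4, and without Hu liver replicate 3 of ZT18 that in liver was 1.

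**Figure D4:**
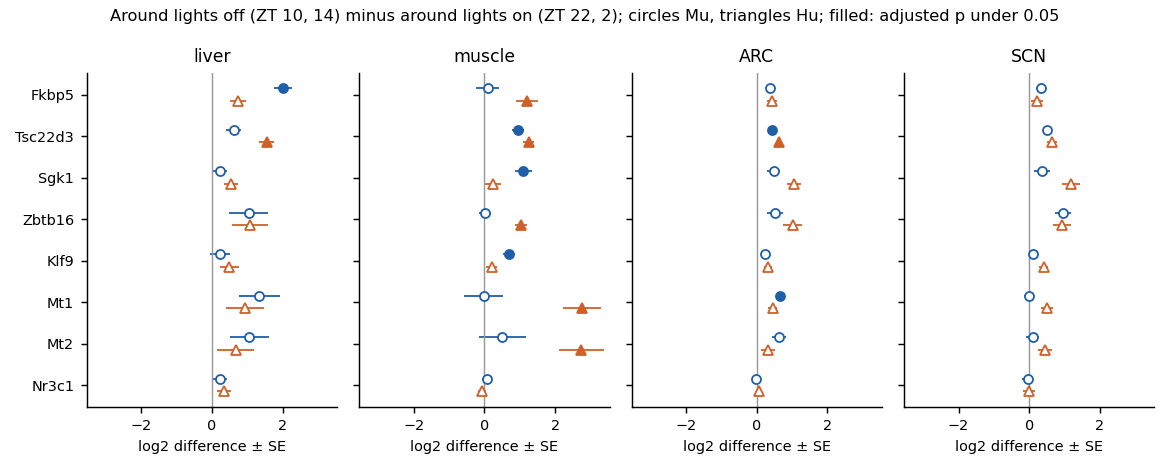
Difference between the mean of ZT10 and ZT14 and the mean of ZT22 and ZT2 on the log2 scale, with its SE as a bar, for each member in liver, muscle, ARC and SCN; circles are Mu, triangles Hu, filled where the adjusted p was under 0.05. Most points lie right of 0, and those of Nr3c1 in muscle, ARC and SCN lie within 0.08 of it.

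The time-averaged level differed between arms for 7 of 8 members in liver, where 79.5% of all genes differed, so the count is near the background. Fkbp5, Sgk1, Mt1 and Mt2 were higher in Hu, and Tsc22d3, Klf9 and Nr3c1 lower (Nr3c1 at -0.33 ± 0.10 log2 units, adjusted p = 0.00492). Zbtb16 did not pass (0.27 ± 0.29, adjusted p = 0.406). With liver totals of all rows the difference was -2.34 for Tsc22d3, -1.50 for Klf9 and -1.12 for Nr3c1, and Fkbp5 no longer passed (0.13, adjusted p = 0.659). Summed markers of liver cell types differed between arms as well. Summed hepatocyte markers had a median of 60130 CPM in Hu (8112 to 89250) against 121400 in Mu (102400 to 135300), and 6 of the 7 genes were lower. All 6 bile duct markers were higher in Hu, with a summed median of 448 CPM (238 to 874) against 103.5 CPM (73.9 to 163). All 6 stellate cell markers were higher (1278 against 511 CPM), as were all 6 endothelial markers (554 against 379 CPM) and 3 of 6 Kupffer cell markers. The part of these cells in the level differences was not tested.

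In muscle 4 of 8 members differed, where 26.9% of all genes did, and all 4 were higher in Hu: Fkbp5 at 0.74 ± 0.22 (adjusted p = 0.0166), Sgk1 at 0.45 ± 0.15 (adjusted p = 0.0281), Mt1 and Mt2. Sgk1 ran from 58.9 to 199 CPM with a median of 142 in Mu and from 105 to 256 CPM with a median of 149.6 in Hu, and the arms overlapped. Without Hu replicate 2 of ZT14, Fkbp5 stood at 0.56 (adjusted p = 0.036) and Sgk1 at 0.38 (adjusted p = 0.0544), and Sgk1 was also lost without Mu replicate 1 of ZT2 or of ZT18. Fat cell markers moved with the arm in muscle: 5 of 6 were higher in Hu, and their sum had a median of 3710 CPM (1403 to 5999) against 1398 CPM (569 to 4343) in Mu, with none at 0. The part of fat in these muscle levels was not tested.

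In ARC no member differed, where 0.00663% of all genes did, and in SCN none differed, where 0% of genes did. At an unadjusted p under 0.05 the counts were 0 in ARC and 2 in SCN, Mt1 and Mt2, and DESeq2 called 0 in both regions. The ARC differences ran from -0.05 ± 0.08 for Fkbp5 to 0.24 ± 0.13 for Sgk1. Whether the arm effect of muscle differed from that of the brain regions was tested by an interaction term in a joint fit, added after these values were seen. Against ARC 3 of 8 members passed (13% of all genes): Fkbp5 at 0.77 ± 0.24 (adjusted p = 0.0234), Mt1 at 1.19 ± 0.37 (0.0241) and Mt2 at 2.30 ± 0.47 (0.000509). Against SCN 2 of 8 passed (13.8% of all genes): Fkbp5 at 0.79 ± 0.24 (0.0203) and Mt2 at 2.07 ± 0.46 (0.00153). Without the Hu muscle library of ZT14 replicate 2, Mt2 passed against both regions (1.41 and 1.19), Fkbp5 passed against SCN (0.61, adjusted p = 0.0472) and not against ARC (0.59, adjusted p = 0.056), and Mt1 passed against neither.

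**Figure D5:**
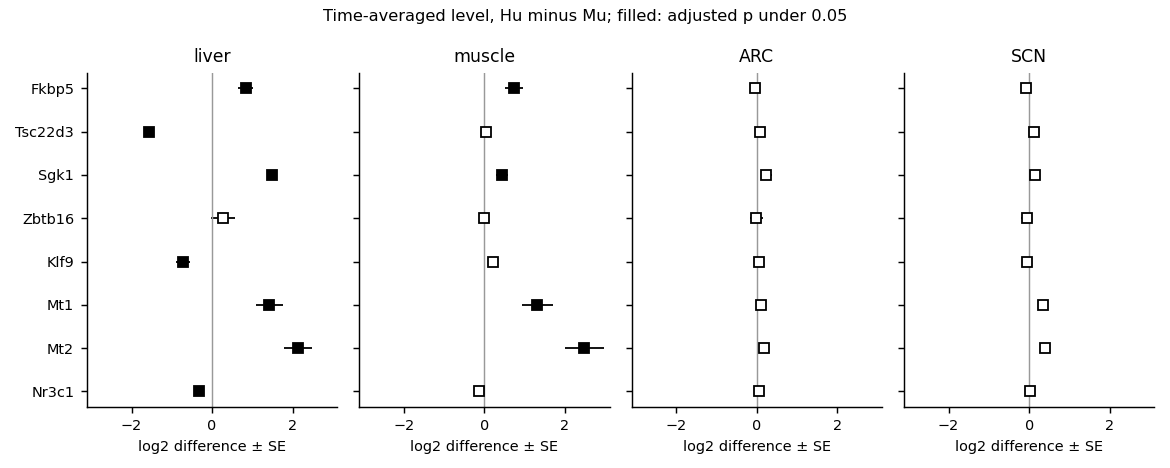
Difference in time-averaged level, Hu minus Mu, on the log2 scale with its SE as a bar, for each member in liver, muscle, ARC and SCN; filled squares passed at an adjusted p under 0.05. In liver 4 filled squares lie right of 0 and 3 left of it, in muscle 4 lie right, and in ARC and SCN every square is open and within 0.4 of 0.

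Levels between muscle, ARC and SCN, which share a table, were compared in the same joint fit. Between muscle and ARC 8 of 8 members differed, where 94% of all genes did, between muscle and SCN 8 of 8, where 93.9% did, and between SCN and ARC 3 of 8, where 60.3% did, so the counts carry little. Zbtb16 ran from 36.0 to 150.2 CPM in the 27 muscle libraries, 8.83 to 33.3 CPM in ARC and 10.1 to 34.6 CPM in SCN, and no muscle library overlapped a brain library. These CPM are scaled within each tissue, while the differences that follow are from the joint fit, whose scaling across tissues differs. Muscle minus ARC was 3.27 ± 0.11 log2 units for Zbtb16, 2.90 ± 0.11 for Sgk1, 2.02 ± 0.06 for Klf9, 1.97 ± 0.07 for Tsc22d3 and 1.74 ± 0.13 for Fkbp5. Scaling by library totals without TMM moved the median of all genes from -0.09 to -1.12 and these values to 2.24, 1.87, 0.99, 0.93 and 0.71, all still called.

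The metallothioneins went the other way, with muscle minus ARC at -1.43 ± 0.18 for Mt1 and -1.32 ± 0.23 for Mt2. By library totals these were -2.43 and -2.32, and without Hu muscle replicate 2 of ZT14 -1.79 and -1.76. Nr3c1 was 0.47 ± 0.05 with TMM and -0.57 by library totals, so its direction between these tissues depends on the scaling. Relative to the median of all genes it was higher in muscle under both. Between the brain regions Nr3c1 was lower in the libraries labelled SCN, whose SCN markers were not the higher ones, than in those labelled ARC, at -0.99 ± 0.06 log2 units for SCN minus ARC (adjusted p = 3.03e-22). The 22 SCN libraries lay at 59.3 to 107 CPM and the 22 ARC libraries at 139.8 to 180.2 CPM, without overlap. Sgk1 and Tsc22d3 were higher in SCN by 0.32 ± 0.11 and 0.16 ± 0.07 (adjusted p = 0.0109 and 0.0337), with overlapping libraries. Liver was counted in another table and is not compared.

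A list of 25 other genes known to be induced through the receptor gave the setting of these results. In Mu liver 8 of 24 measured were rhythmic (17.3% of all genes), led by Per1, the phosphatase gene Dusp1, the transcription factor gene Foxo3 and Nfkbia, which encodes an inhibitor of NF-kB, and in Hu liver 0 of 24 were (0.167% of all genes). In muscle 5 of 23 were rhythmic in Mu and 10 of 23 in Hu (5.31% and 7.78% of all genes), with Ddit4, an inhibitor of the growth kinase mTOR, first in Hu (adjusted p = 0.000385). In ARC 6 of 20 were rhythmic in Mu and 1 of 20 in Hu, the factor gene Klf15 (1.41% and 0.0995% of all genes), and in SCN 2 of 20 in Mu and 0 of 20 in Hu (0.207% and 0.00666%). Around lights off, 3 of 23 were higher than around lights on in Mu muscle and 9 of 23 in Hu muscle, with none lower (1.85% and 4% of all genes passed). Per1 stood at 3.00 ± 0.37 log2 units in Mu and 2.36 ± 0.34 in Hu muscle.

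The level of this list was higher in Hu muscle for 13 of 23 genes and lower for 0, where 26.9% of all genes differed. The median difference was 0.66 against 0.03 over all genes tested. The list was chosen with earlier results of these data known. It was not refitted without Hu muscle replicate 2 of ZT14. The fat cell markers given above were also higher in Hu muscle, with a summed median of 3710 against 1398 CPM, and their part in the list was not tested. The C/EBP factor gene Cebpd (1.53 ± 0.25), the arrestin family gene Arrdc2 (1.27 ± 0.25), Pck1, which encodes an enzyme of glucose production (3.62 ± 0.80), and Ddit4 (1.13 ± 0.25) had the smallest p. In liver 7 of 24 were higher and 13 lower in Hu, with a median of -0.50. That is near the share of all genes that differed, 79.5%. The glutamine synthetase gene Glul was lowest (-3.29 ± 0.12), followed by Klf15 (-1.85 ± 0.17). In ARC and SCN 0 of 20 differed. Of 6 measured genes for hormone handling in liver 5 differed, again near 79.5%, and the hepatocyte markers were lower in Hu too (summed median 60130 against 121400 CPM). Hsd11b1, whose enzyme regenerates active hormone (-1.17 ± 0.18), Serpina6, which encodes the corticosteroid binding globulin of plasma (-2.11 ± 0.36), and Srd5a1 (-3.16 ± 0.26) were among the 4 lower in Hu, and the efflux pump gene Abcb1a was higher (3.99 ± 0.23). In muscle Hsd11b1 was higher in Hu (1.40 ± 0.39, adjusted p = 0.0119). Among 6 chaperone genes of the receptor, 5 were rhythmic in Mu liver, led by Hspa8, where 17.3% of all genes were, and 0 in Hu liver, where 0.167% were. Of 4 measured genes of the metal response, 2 were higher in Hu liver, where 79.5% of all genes differed, Gclc (1.77 ± 0.27) and Slc39a10 (0.87 ± 0.20).

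Genes whose pattern was most like that of a member were ranked by Pearson's r over 48 group means (arm and time in 4 tissues, each arm centred and each tissue scaled), among 12820 genes kept in every tissue. The points share libraries between genes, and r is given as a description. Nearest to Fkbp5 were Zbtb16 (0.806), Zfp276 (0.774) and Ccdc137 (0.742). Nearest to Tsc22d3 were Hif3a (0.863), Fmo2 (0.847) and Rrp8 (0.846), and Hif3a was also nearest to Sgk1 (0.742), before Klf15 (0.711) and Map3k6 (0.708). Zbtb16 had Fkbp5 (0.806), Tsc22d3 (0.804) and Trp53bp2 (0.801). Klf9 had the clock output factor Tef (0.708), Usp2 (0.702) and Per1 (0.692), and its r with Fkbp5 was 0.108. Mt1 and Mt2 had each other first (0.889), then Psma7 (0.792 and 0.765), then Pdcd6 for Mt1 (0.734) and Trmt6 for Mt2 (0.761). Nr3c1 had Zfp281 (0.817), Ythdf3 (0.796) and Strn3 (0.783), none of them a member, and its r with the 7 targets ran from -0.307 to 0.434.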

How the data were processed

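RNA from 98 liver, muscle, ARC and SCN libraries was analysed from raw counts per gene as deposited by the authors. The submitters' processing notes name STAR and the builds GRCm38/mm10, GRCh38/hg38 and hg19 without roles, and the library kit is directional per the labels' protocols. The counting program, its strand setting and its annotation are not given in the sources used here. Groups and times came from sample titles. Human rows of the liver table were left out, and liver library sizes were the sums of mouse rows. Genes were filtered with filterByExpr, scaled by TMM and fitted per tissue in edgeR 4.0.16 (R 4.3.3) with a 24 h cosine and sine in each arm. A second fit had 1 mean for each arm and time. Muscle, ARC and SCN were also fitted jointly. Quasi-likelihood tests were adjusted by Benjamini-Hochberg over all genes of a test at 0.05. Standard errors of log2 differences are the difference divided by the square root of F, and those of peak times follow from the fitted coefficients. Log2 CPM for correlations and least squares peaks used a prior count of 2. The fits per tissue were tested on simulated data. The joint fit and the alternatives that follow were not. Alternatives were scaling by RLE, DESeq2 1.42.0, no filter, time as a factor, each arm alone and the replicate number as a block. Further alternatives were liver totals of all rows without TMM, the human share as a covariate, and leaving out each library.

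All 8 members are named. At most 4 genes of each other list and comparison are named, those with the smallest p that passed. The clock references and the 3 genes most like each member are named as well. The members and lists were chosen with earlier results of these data known. Total mouse counts ran from 7.70 to 118 M (1 M is 1000000) a library, and intervals from the fits cover the spread between libraries.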

Additional observations from a re-analysis of the deposited data

Results flagged for a closer look

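In liver the daily curves differed between arms for Fkbp5 (adjusted p = 0.0465) and Tsc22d3 (adjusted p = 0.0498) by edgeR's quasi-likelihood test of the difference in curves. Fkbp5 had the larger swing in Mu, and Tsc22d3 peaked 3.00 h earlier in Hu with nearly the same swing. Both values lie just under the threshold of 0.05.

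The difference between Hu and Mu also differed between tissues in the joint fit, by a test added after the levels were seen. Of all genes, 13% passed for muscle against ARC and 13.8% for muscle against SCN. Muscle exceeded ARC by 0.77 log2 units for Fkbp5, 1.19 for Mt1 and 2.30 for Mt2. Muscle exceeded SCN by 0.79 for Fkbp5 and 2.07 for Mt2, while Mt1 stood at 0.94 (adjusted p = 0.0791). Values without Hu muscle replicate 2 of ZT14 are given with the levels.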

How the results depend on the processing

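The labels do not say that a replicate number marks a shared animal, and the numbers were not taken to pair the samples: same-numbered libraries deviated together by more than 0.1 in 5 of 9 distinct pair values in liver, 2 of 9 in muscle, 3 of 4 in ARC and 2 of 4 in SCN (with 2 libraries in both arms, both numbers give the same value). With the replicate number as a block the counts were 20 rhythmic members (22 without it), 0 with a different rhythm (2), 12 with a different level (11), 9 around lights off (13), 20 between tissues (19) and 4 for the arm effect between tissues (5). The count of members with a different rhythm was 1 by RLE scaling, 0 without a filter, 0 with time as a factor, 0 with liver totals of all rows and 1 with the human share as a covariate. Time as a factor, which spends more terms on each arm, left 11 rhythmic members, and each arm fitted alone left 16. DESeq2 called 22 around lights off. Without muscle Hu ZT14 replicate 2 the arm effect differed between tissues for 3 results. Under library totals Nr3c1 in muscle minus ARC turned to -0.57. Leaving out 1 library at a time gave 18 to 23 rhythmic members, 0 to 2 with a different rhythm, 10 to 12 with a different level and 9 to 17 around lights off. Of 48 called results, 22 kept their call in every such refit, and none of the 633 refits of the 24 among them that have a direction reversed it. All 22 called peak times lay within 1 SE by least squares on log2 CPM.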

Other observations

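The acute phase list, 8 genes that liver and other cells raise in inflammation, moved in both directions in Hu liver. Of its 8 genes, 5 were lower and 2 higher in Hu than in Mu by edgeR's quasi-likelihood test, where 79.5% of all genes differed. Orm1, a plasma glycoprotein gene, stood at -2.36 ± 0.25 (SE, log2; adjusted p = 1.1e-08), the serum amyloid genes Saa1 at -3.94 ± 0.50 (1.96e-07) and Saa2 at -4.00 ± 0.56 (7.11e-07), and the fibrinogen gene Fgg at -1.81 ± 0.28 (3.96e-06). Hepatocytes make these 4 gene products, and the summed hepatocyte markers were lower in Hu as well, with a median of 60130 CPM against 121400 in Mu. In muscle 2 of 6 measured genes were higher in Hu, near the 26.9% of all genes that differed, Hp at 2.42 ± 0.59 (adjusted p = 0.0049) and Lcn2 at 2.58 ± 0.81 (adjusted p = 0.0224), beside fat cell markers at a median of 3710 CPM in Hu and 1398 CPM in Mu. The part of hepatocytes and fat in these values was not tested, and they were computed with mouse row library sizes alone.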
